A study of Mus musculus with 6 samples.

Results

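Osteoclasts, the cells that resorb bone, also release or display factors that act on bone-forming cells, and 10 genes of this coupling were examined here: Sphk1, Sphk2, S1pr1, S1pr2, Pdgfb, Sema4d, Efnb2, Lif, Cthrc1 and Spp1. They were chosen by symbol, and all 10 were found among the 24940 genes of the deposited table. The cells were mouse bone marrow-derived macrophages (BMMs), the osteoclast precursors, cultured for 3 days with M-CSF at 30 ng/mL, which all groups received. The -R group had M-CSF alone, the +R group also had RANKL, the cytokine that drives osteoclast formation, at 100 ng/mL, and the R+LE group had RANKL and a leaf extract (LE) of Abeliophyllum distichum at 10 μg/mL. Each group had 2 libraries. The mice were C57BL/6 at 6 to 8 weeks of age, with cells in 48-well plates, according to the labels, whereas the methods of the study describe male ICR mice of 6 to 7 weeks and 6-well plates for sequencing. Neither source says whether the 2 libraries of a group came from separate mice or cultures, so the p-values measure only the spread between these libraries. There was no group with LE and without RANKL.

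Sphingosine kinases, encoded by Sphk1 and Sphk2, make the lipid sphingosine-1-phosphate (S1P), which cells export and which acts through G protein-coupled receptors, among them those encoded by S1pr1 and S1pr2. On osteoclast precursors the first of these receptors draws cells toward S1P and the other repels them, while S1P released by osteoclasts acts on osteoblasts. PDGF-BB from preosteoclasts recruits progenitors and vessels, and semaphorin 4D on osteoclasts restrains osteoblasts through plexin B1. Ephrin B2 is a membrane ligand of EphB receptors, leukaemia inhibitory factor signals through gp130, Cthrc1 is a secreted factor of resorbing osteoclasts, and Spp1 encodes osteopontin, a matrix protein bound by integrins.

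Values are reads per kilobase of transcript (RPKM), scaled to the mapped reads of the library, so that levels can be compared between genes. Mapped reads ranged from 29390210 to 34846376 per library, and 3 reads on a 1-kb transcript corresponded to between 0.0861 and 0.102 RPKM. The Rn45s entry, the ribosomal RNA precursor, held 4.97% to 6.83% of reads on genes in -R and 10.9% to 13.5% in the other groups. The labelled cell type was checked by summed marker levels. All 5 macrophage markers were present, with -R libraries at a sum of 1380 to 1485 RPKM, +R libraries at 790 to 900 RPKM and R+LE libraries at 700 to 852 RPKM. Itgam alone of the 5 went the other way, at 69.6 and 71.4 RPKM in -R, 101 and 79.7 RPKM in +R, and 103 and 106 RPKM in R+LE. The 8 osteoclast markers summed to 43.2 to 44.8 RPKM in -R and to 1866 to 2123 RPKM in +R, while the R+LE sum was 329 to 380 RPKM. All 8 were called higher with RANKL and lower when LE was added to it. The osteoclast marker sum differed between all 3 groups, and its part in the differences given here was not tested. In bulk RNA, fewer cells of a type and less RNA per cell cannot be told apart.

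The table counts 1 transcript for each gene, placed here in mm10 coordinates. Sphk1 lies at chr11:116533238-116536675 on the plus strand and Sphk2 at chr7:45709463-45718002 on the minus strand. The receptors S1pr1 and S1pr2 lie at chr3:115710433-115715055 and chr9:20965952-20976793, both on the minus strand. Pdgfb is at chr15:79995876-80014808, Sema4d at chr13:51701248-51793747 and Efnb2 at chr8:8617439-8660773, all on the minus strand. Lif is at chr11:4257568-4272514, Cthrc1 at chr15:39076932-39087119 and Spp1 at chr5:104435111-104441053, all on the plus strand. Reads were counted without regard to strand, so the exons that overlap another gene bear on these values. Within the counted span, exons of Sphk2 share 539 bp with Dbp and 373 bp with Rpl18 on the opposite strand in the GENCODE M21 annotation, and exons of Spp1 share 309 bp with the predicted gene Gm42793 on the same strand. The other 8 members shared no exonic base with another annotated gene.

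Of the 10 members, 7 averaged 0.5 RPKM or more across the 6 libraries and entered the main test, limma on log2(RPKM + 0.5) over 11595 genes with Benjamini-Hochberg adjustment. Calls required an adjusted p under 0.05 and a change of at least 2-fold. Lif (mean 0.46 RPKM), Efnb2 (0.234 RPKM) and Cthrc1 (0.149 RPKM) were too low for that test and were tested on whole reads recovered from the table, by limma voom over 14154 genes. No member was at 3 reads or fewer in every library, so none was undetected throughout. Cthrc1 had 0 reads in both -R libraries, which allows up to 3 reads a library, and Sphk1 had 2 and 4 reads there. These levels are at or near the detection limit, and fold changes against them are poorly fixed.

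Promoter windows from RefSeq on GRCm38.p6, the assembly of mm10, cover 250 bases before and 50 after an annotated start. They are shown for members called in +R against -R, where the counted transcript begins at such a start (S1pr2 and Spp1, which fell, and Lif, which rose), and for Sphk1, which rose and whose nearest annotated start lay 787 bases before that of the counted transcript. Capitals mark letters that match, on either strand, GGAAA (NFAT), TGANTCA (AP-1), TGACGTCA (CRE), CACGTG (MiT factors), where N is any base, or the NF-κB letters, GGG and CC with 5 free bases between them.
S1pr2 chr9:20976744-20977043, minus strand: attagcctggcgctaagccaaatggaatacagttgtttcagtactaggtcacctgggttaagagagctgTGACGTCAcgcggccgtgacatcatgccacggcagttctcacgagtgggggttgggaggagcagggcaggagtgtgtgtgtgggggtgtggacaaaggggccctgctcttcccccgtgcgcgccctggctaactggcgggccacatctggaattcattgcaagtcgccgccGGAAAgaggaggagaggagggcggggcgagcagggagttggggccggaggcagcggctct
Spp1 chr5:104434861-104435160, plus strand: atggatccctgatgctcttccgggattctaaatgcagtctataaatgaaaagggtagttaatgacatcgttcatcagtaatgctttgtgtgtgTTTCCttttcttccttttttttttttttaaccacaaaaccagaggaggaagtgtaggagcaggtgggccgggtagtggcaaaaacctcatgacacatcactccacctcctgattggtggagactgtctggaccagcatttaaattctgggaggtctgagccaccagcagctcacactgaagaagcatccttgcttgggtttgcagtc
Lif chr11:4257318-4257617, plus strand: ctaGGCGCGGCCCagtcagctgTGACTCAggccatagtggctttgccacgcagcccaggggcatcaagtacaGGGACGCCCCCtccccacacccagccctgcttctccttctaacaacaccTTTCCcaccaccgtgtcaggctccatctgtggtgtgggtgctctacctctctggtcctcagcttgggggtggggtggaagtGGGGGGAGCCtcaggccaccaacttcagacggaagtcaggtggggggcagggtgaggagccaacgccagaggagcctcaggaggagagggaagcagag
Sphk1 chr11:116532201-116532500, plus strand: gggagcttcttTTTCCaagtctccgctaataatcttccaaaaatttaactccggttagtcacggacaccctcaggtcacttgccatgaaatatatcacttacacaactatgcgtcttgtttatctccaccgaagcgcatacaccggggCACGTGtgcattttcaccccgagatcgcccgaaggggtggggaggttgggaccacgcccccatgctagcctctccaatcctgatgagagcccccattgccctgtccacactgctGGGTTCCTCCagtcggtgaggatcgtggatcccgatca

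The S1pr2 window held 1 CRE match and 1 NFAT match, and the Spp1 window held 1 NFAT match. The Lif window held 1 AP-1 match, 1 NFAT match and 4 NF-κB matches, of which a pair overlapped by all but their outer base. The Sphk1 window held 1 match each for NFAT, NF-κB and the MiT motif, and of the 5 annotated Sphk1 starts, 2 overlapping windows held an AP-1 match. Among all 32851 promoters of the same length, 61.3% held the NFAT letters, 50.8% those of NF-κB, 7.81% those of AP-1, 7.15% those of MiT factors and 1.79% those of CRE. The NFAT and NF-κB letters are thus too common to set these members apart, and a match is not a binding site. The only annotated start of Efnb2 there lay 469 bases before that of its counted transcript, and its window held 4 NF-κB matches. For S1pr1 and Cthrc1 no window is shown.

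**Figure D1:**
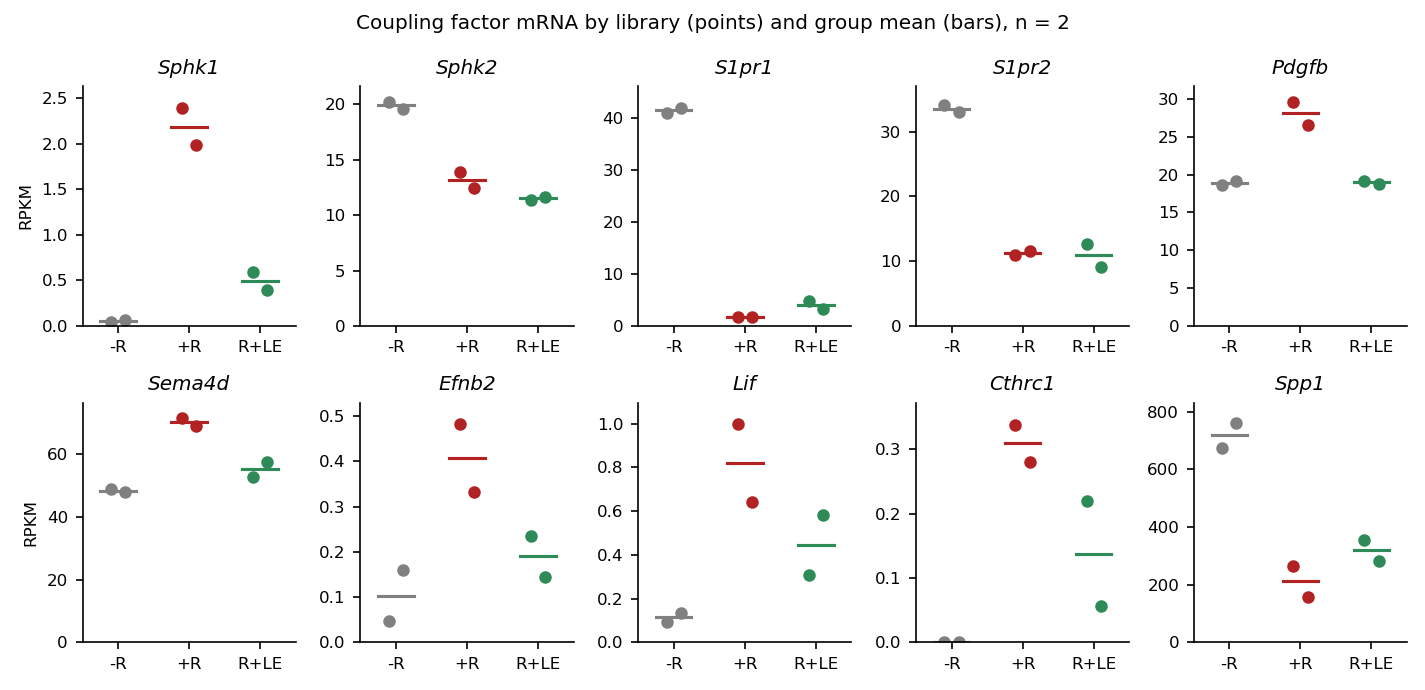
RPKM (vertical axes, each starting at 0) of the 10 coupling factors in the -R, +R and R+LE groups, with a point for each library and a bar at the group mean (n = 2). Sphk2, S1pr1, S1pr2 and Spp1 were highest in -R, whereas Sphk1, Pdgfb, Sema4d, Efnb2, Lif and Cthrc1 were highest in +R.

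By level, Spp1 was the most abundant member in every group and Cthrc1, Efnb2 and Lif were among the lowest. In +R the group means ran from 211 RPKM for Spp1 through 70.3 RPKM for Sema4d, 28.1 RPKM for Pdgfb, 13.2 RPKM for Sphk2 and 11.2 RPKM for S1pr2 to 2.19 RPKM for Sphk1 and 1.74 RPKM for S1pr1. Sphk2 and S1pr2 were close, but their library values did not overlap. The values of Sphk1 and S1pr1 did not overlap either. Below them came Lif at 0.821 RPKM, Efnb2 at 0.408 RPKM and Cthrc1 at 0.310 RPKM, of which the last pair overlapped. In -R the order differed at the top of the S1P genes, where S1pr1 stood at 41.6 RPKM and S1pr2 at 33.5 RPKM, both above Sphk2 at 19.9 RPKM.

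The comparison of +R with -R asks how the coupling factors change as precursors become osteoclasts. RANKL raised Sphk1 and lowered S1pr1, S1pr2 and Spp1, so that 1 of the 7 tested members was called higher and 3 were called lower. The 1 called higher, Sphk1, was among the 7 only through its level in +R. Among all tested genes, 6.58% were called higher and 8.92% lower. In the fit with all 6 libraries the adjusted p was under 0.05 for all 7, as it was for 45.4% of all tested genes. With 1 library left out, the log2 difference ran from 0.48 to 0.64 for Pdgfb and from 0.51 to 0.56 for Sema4d. The 7 members had a median log2 fold change of -0.58 against 0.05 over all genes.

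S1pr1 had the largest change among the 7 tested members on log2(RPKM + 0.5), the scale that understates changes of low genes such as Sphk1. By depth-scaled group reads S1pr1 was 23.9-fold lower in +R (95% counting interval 21.4 to 26.8) and Sphk1 41.1-fold higher (18.6 to 113), with intervals that overlap. Its level was 41.1 and 42.0 RPKM in -R, 1.71 and 1.77 RPKM in +R, and 4.83 and 3.20 RPKM in R+LE. The 3 groups did not overlap, and the +R libraries were the lowest. The mean was 41.6 ± 0.634 RPKM for -R, 1.74 ± 0.0382 RPKM for +R and 4.01 ± 1.15 RPKM for R+LE (SD, n = 2). The log2 fold change with RANKL was -4.23 ± 0.16 (SE), with an adjusted p of 2.79e-11 in limma, and ranked 39 by size among the 11595 genes tested. The +R values rested on 159 and 164 reads.

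S1pr2, the other S1P receptor member, also fell. It measured 34.0 and 33.0 RPKM in -R, 10.9 and 11.6 RPKM in +R, and 12.7 and 9.15 RPKM in R+LE. Both -R libraries were above all the others, whereas the R+LE libraries lay on either side of the +R libraries. The log2 fold change with RANKL was -1.54 ± 0.16 (SE, adjusted p = 1.13e-06 in limma). Within each library, the ratio of S1pr1 to S1pr2 RPKM was 1.21 and 1.27 in -R but 0.157 and 0.153 in +R, with 0.381 and 0.350 for R+LE. S1pr1 mRNA was thus the more abundant of the pair only in -R.

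Of the other S1P receptors, S1pr4 alone passed the level filter, with -R at 0.624 to 0.726 RPKM, +R at 0.572 to 0.913 RPKM and R+LE at 1.07 to 1.25 RPKM, and it was called in no comparison. S1pr3 was at 0.262 RPKM or less, and S1pr5 was listed at 0 in 5 of 6 libraries.

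Sphk1 rose from near the detection limit. It measured 0.039 and 0.065 RPKM in -R, 2.39 and 1.99 RPKM in +R, and 0.596 and 0.393 RPKM in R+LE. The 3 groups did not overlap, with +R the highest and -R the lowest. In reads these were 2 and 4 without RANKL, 129 and 107 with it, and 33 and 21 with LE. The log2 fold change with RANKL on log2(RPKM + 0.5) was 2.28 ± 0.22 (SE, adjusted p = 7.04e-07 in limma). The ratio of depth-scaled reads, 236 against 6, was 41.1, with an exact 95% counting interval of 18.6 to 113. Such intervals cover counting error only.

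Sphk2 was the more abundant kinase in every library. It measured 20.2 and 19.6 RPKM in -R, 13.9 and 12.5 RPKM in +R, and 11.4 and 11.6 RPKM in R+LE, with no overlap between the groups. The log2 difference of +R from -R was -0.58 ± 0.13 (SE, adjusted p = 0.00238 in limma), under the 2-fold threshold. Sphk1 made up 0.193% and 0.330% of the summed RPKM of the kinases without RANKL, 14.7% and 13.7% with it, and 4.98% and 3.27% with LE. Of the genes whose exons overlap Sphk2, Rpl18, a ribosomal protein gene, stood at 517 to 591 RPKM without RANKL, 881 to 899 RPKM with it and 705 to 901 RPKM with LE. Dbp stood between 1.75 and 3.88 RPKM over the 6 libraries. Rpl18 moved the opposite way to Sphk2 with RANKL, and its part in the Sphk2 values was not tested.

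**Figure D2:**
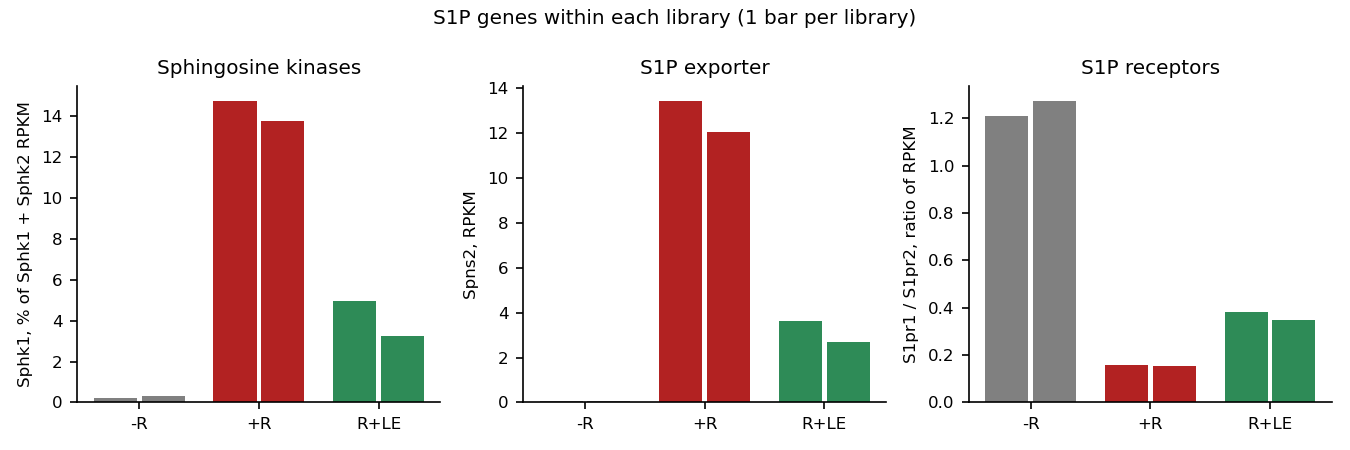
S1P genes in each library, with 1 bar per library: the share of Sphk1 in the summed Sphk1 and Sphk2 RPKM (percent), the RPKM of the exporter Spns2, and the ratio of S1pr1 to S1pr2 RPKM. The Sphk1 share and Spns2 were highest in +R and intermediate in R+LE, and the receptor ratio was lowest in +R.

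Of 14 further genes of S1P metabolism and export, 11 were tested, and with RANKL 2 were called higher and 1 lower (median log2 fold change -0.41). Spns2, the S1P exporter, measured 0.042 and 0.071 RPKM in -R, 13.4 and 12.0 RPKM in +R, and 3.63 and 2.67 RPKM in R+LE. Like Sphk1, it was near the detection limit without RANKL and highest in +R. Its log2 fold change with RANKL was 4.57 ± 0.17 (SE, adjusted p = 1.97e-11 in limma). Plpp1, a lipid phosphate phosphatase that can act on S1P outside the cell, rose from 2.34 ± 0.158 to 11.8 ± 1.34 RPKM (SD, n = 2). The related Plpp3 fell from 2.53 ± 0.0247 to 0.454 RPKM, the same value in both +R libraries. Exons of Spns2 share 131 bp with Mybbp1a and those of Plpp1 452 bp with Mtrex, on the opposite strand. The S1P lyase gene Sgpl1 measured 78.5 and 85.6 RPKM in -R and 62.1 and 56.7 RPKM in +R, and was not called.

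Spp1 was lower with RANKL. It measured 673 and 762 RPKM in -R, 264 and 158 RPKM in +R, and 356 and 283 RPKM in R+LE. The 3 groups did not overlap, but the +R libraries differed 1.67-fold from each other, the widest replicate gap in +R among the 7 tested members. The log2 fold change was -1.81 ± 0.22 (SE, adjusted p = 9.24e-06 in limma). Spp1 is also a gene of osteoblasts. Among 9 osteoblast and stromal markers, Bglap, Sp7 and Alpl stood at 0.13 RPKM or less in every library. The collagen genes Col1a1 (3.37 to 8.33 RPKM) and Col1a2 (3.45 to 6.24 RPKM) were present in all 6, as were Col3a1 (0.627 to 1.58 RPKM) and Runx2 (0.755 to 1.68 RPKM). The summed level of the list was 32.9 to 34.7 RPKM in -R and 12.3 to 15.9 RPKM in the other groups. Most of that difference lay in Pdpn. Of the 5 tested, Pdpn alone was called with RANKL, and it was lower (16.8 ± 2.09 against 0.790 ± 0.424 RPKM, SD, n = 2). The part of these in the Spp1 values was not tested.

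Of 11 genes for osteopontin receptors and related matrix proteins of the SIBLING family, 6 were tested, and with RANKL 2 were called higher and 1 lower (median 0.41). The integrin β3 gene Itgb3 rose from 0.171 and 0.214 RPKM in -R to 38.1 and 28.4 RPKM in +R. Itga4 rose from 11.0 ± 1.71 to 29.2 ± 1.08 RPKM, whereas Itgb5, which encodes the β5 partner of αv, fell from 84.2 ± 2.70 to 20.4 ± 2.37 RPKM (SD, n = 2). Exons of Itga4 share 127 bp with Cerkl on the opposite strand.

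Pdgfb and Sema4d were higher in +R by less than 2-fold. Pdgfb measured 18.6 and 19.2 RPKM in -R, 29.7 and 26.5 RPKM in +R, and 19.1 and 18.8 RPKM in R+LE. The +R libraries were above all the others, and the R+LE libraries overlapped the -R libraries. The log2 difference of +R from -R was 0.56 ± 0.14 (SE, adjusted p = 0.00341 in limma). Sema4d measured 48.8 and 47.8 RPKM in -R, 71.6 and 69.1 RPKM in +R, and 52.8 and 57.6 RPKM in R+LE. The groups did not overlap, and R+LE lay between -R and +R. The log2 difference of +R from -R was 0.54 ± 0.14 (SE, adjusted p = 0.0055 in limma).

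Of 5 other PDGF ligands and receptors only Pdgfa was tested, and it was called higher with RANKL, from 4.20 ± 0.439 to 13.5 ± 0.982 RPKM (SD, n = 2). Within a library, Pdgfb exceeded Pdgfa 4.13-fold and 4.92-fold without RANKL, 2.09-fold and 2.07-fold with it, and 2.27-fold and 2.12-fold with LE. The PDGF receptor genes Pdgfra and Pdgfrb stood at 0.538 RPKM or less. Of 15 other semaphorins 5 were tested, with Sema7a, which encodes a membrane-anchored semaphorin, called higher (0.268 ± 0.0693 against 1.92 ± 0.233 RPKM) and Sema4c called lower (1.72 ± 0.0912 against 0.454 ± 0.00636 RPKM, SD, n = 2). Sema7a passed the level filter only through its +R libraries and Sema4c only through its -R libraries. The median log2 fold change of the 5 was 0.35. Of 12 semaphorin receptor genes 9 were tested, with 3 called higher, 2 lower and a median of 0.00. Nrp2 rose from 41.3 ± 4.96 to 192 ± 14.7 RPKM, Plxna4 from 0.358 ± 0.00778 to 8.86 ± 1.07 RPKM and Plxnd1 from 23.0 ± 0.676 to 66.6 ± 8.12 RPKM. Nrp1 fell from 53.6 ± 3.96 to 5.29 ± 0.515 RPKM and Plxnc1 from 6.31 ± 1.29 to 1.17 ± 0.118 RPKM (SD, n = 2). The neuropilins and plexins are the partners through which semaphorins signal. Exons of Plxna4 share 110 bp with an antisense gene, and those of Nrp1 and Plxnc1 share 37 bp and 115 bp with annotated genes on their own strand.

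Lif, Efnb2 and Cthrc1 were low in all groups but higher in +R. On the recovered reads all 3 were called higher in +R than in -R, and with Sphk1 that made 4 of the 10 members. Among all genes tested in this way 8.58% were called higher. Cthrc1 reached the 20 reads needed for this test only through its +R libraries. Lif measured 0.093 and 0.136 RPKM in -R, 0.999 and 0.642 RPKM in +R, and 0.308 and 0.582 RPKM in R+LE, or 11 and 19 reads, 123 and 79 reads, and 39 and 71 reads. The groups did not overlap. The log2 fold change with RANKL was 2.77 ± 0.48 (SE, adjusted p = 1.5e-07 in limma voom), and the ratio of depth-scaled reads was 7.04 (95% counting interval 4.78 to 10.7).

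Efnb2 measured 0.047 and 0.160 RPKM in -R, 0.483 and 0.332 RPKM in +R, and 0.235 and 0.145 RPKM in R+LE. In reads these were 6 and 24, 64 and 44, and 32 and 19. The +R libraries were above all the others, and -R and R+LE overlapped. The log2 fold change with RANKL was 2.09 ± 0.53 (SE, adjusted p = 0.000432 in limma voom). This call rested on the lower -R library, since without it the log2 fold change was 1.31 with an adjusted p of 0.0803.

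Cthrc1 had no read in either -R library, 12 and 10 reads in +R, and 8 and 2 reads in R+LE. The +R values were 0.338 and 0.281 RPKM, and those of R+LE 0.219 and 0.057 RPKM. Against a limit of 3 reads in each -R library, the +R mean was at least 3.81-fold higher. The adjusted p was 0.0001 in limma voom, a test that Cthrc1 entered only through its +R reads. Its level in R+LE cannot be set firmly against either group, since 1 of the libraries held 2 reads.

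Of the 7 ephrins other than Efnb2, 2 were tested, and Efna2 was called higher with RANKL (0.405 ± 0.0382 against 2.81 ± 0.313 RPKM, SD, n = 2). The other, Efnb1, measured 1.41 and 1.33 RPKM in -R and 3.09 and 3.21 RPKM in +R. It was not called on log2(RPKM + 0.5), the scale that understates changes of low genes. Ephrin mRNA in +R was thus mostly Efnb1 and Efna2 rather than Efnb2 on this per-length scale. Of 11 Eph receptor genes only Epha2 was tested. Of 11 gp130 cytokines and receptors other than Lif, 4 were tested, and the cytokine gene Osm was called lower, from 2.87 ± 0.137 to 0.531 ± 0.122 RPKM (SD, n = 2). Osm passed the level filter only through its -R libraries. The receptor gene Lifr stood at 0.711 RPKM or less and Il6st, which encodes gp130, between 8.26 and 20.7 RPKM.

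**Figure D3:**
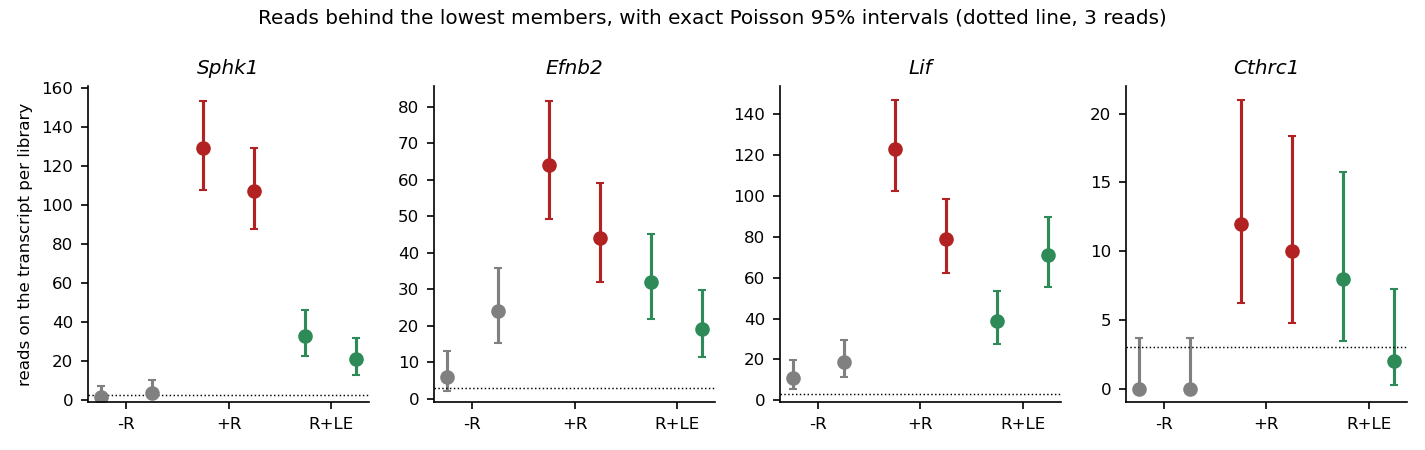
Reads on the transcript in each library (vertical axes) for Sphk1, Efnb2, Lif and Cthrc1, with exact Poisson 95% intervals, in the -R, +R and R+LE groups. The dotted line marks 3 reads, and the -R libraries of Cthrc1 hold 0 reads while those of Sphk1 hold 2 and 4.

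The comparison of R+LE with +R asks what LE did to these factors in the presence of RANKL. It shares the +R libraries with the comparison above, so that an opposite sign in both is not independent. Sphk1 was called lower with LE, the only one of the 7 tested members that was called, while 1.78% of all tested genes were called lower and 1.46% higher. Here too, Sphk1 was among the 7 only through its level in +R. In the main test with all 6 libraries, the adjusted p was under 0.05 for 3 members (Sphk1, S1pr1 and Pdgfb) and for 12.0% of all tested genes. The median log2 fold change of the 7 was -0.18 against -0.05 over all genes.

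Sphk1 fell by 1.44 ± 0.22 on the log2 scale (SE, adjusted p = 0.000469 in limma), from 2.19 ± 0.289 to 0.495 ± 0.144 RPKM (SD, n = 2). The ratio of depth-scaled reads of +R to R+LE was 4.41 (95% counting interval 3.27 to 6.05). Spns2 was also called lower with LE, by a log2 fold change of -1.87 ± 0.17 (SE, adjusted p = 4.1e-06 in limma), and so was Plpp1, at 5.32 ± 0.890 RPKM in R+LE (SD, n = 2). These were the 2 genes of the S1P metabolism list called with LE, with a list median of 0.04. Sphk2 differed from +R by a log2 of -0.18 (95% interval -0.47 to 0.10).

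S1pr1 was higher with LE by 0.99 ± 0.16 on the log2 scale (SE, adjusted p = 0.000861 in limma), which is 1.98-fold and just short of the threshold. It was called on the recovered reads, at 1.18 (adjusted p = 1.2e-06 in limma voom), where 2.07% of genes were called higher and 2.71% lower. It was also called with +R replicate 2 left out (1.01) and with R+LE replicate 2 left out (1.25), but it was 0.73 with R+LE replicate 1 left out. With no filter its adjusted p was 0.0603. S1pr2 differed by -0.06 (95% interval -0.39 to 0.28), and without R+LE replicate 2 the sign turned, at 0.17.

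Pdgfb differed by -0.55 ± 0.14 on the log2 scale (SE, adjusted p = 0.0134 in limma), a 1.47-fold lower level, and both R+LE libraries were below both +R libraries. The Pdgfb difference was -0.47 without +R replicate 1 and -0.63 without +R replicate 2. Sema4d differed by -0.35 (95% interval -0.65 to -0.05, adjusted p = 0.139) and Spp1 by 0.63 (95% interval 0.16 to 1.11, adjusted p = 0.0866 in limma). The libraries of each did not overlap between +R and R+LE, but in this fit neither adjusted p was under 0.05. For Spp1 it was under 0.05 with limma voom (0.00158), the replicate block (0.0139), quantile normalization (0.0312) and centring on the median (0.0450), always short of 2-fold. Without +R replicate 1, the higher of the +R libraries for Spp1, its difference was 1.001 and was called (adjusted p = 0.00706), whereas without +R replicate 2 it was 0.26 (adjusted p = 0.742), so the size of the Spp1 difference rested on which +R library was kept.

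Of the low members none was called with LE by limma voom or by limma on log2(RPKM + 0.5) without a filter, while the unadjusted p was under 0.05 for 2 of the 3 in each of these. Lif differed by -0.92 ± 0.33 on the log2 scale (SE, adjusted p = 0.0422 in limma voom), short of 2-fold, and the value turned on single libraries. It was called without +R replicate 2 (-1.24) and without R+LE replicate 2 (-1.37), whereas it was -0.60 without +R replicate 1 (adjusted p = 0.492) and -0.46 without R+LE replicate 1 (adjusted p = 0.461). With the replicate block its adjusted p was 0.0558, and without either -R library it was 0.115 and 0.111. Efnb2 differed by -1.10 ± 0.44 (SE, adjusted p = 0.0818 in limma voom) and Cthrc1 by -1.32 ± 0.82 (SE, adjusted p = 0.356). The read ratios of +R to R+LE were 1.85 for Lif, 2.14 for Efnb2 and 2.22 for Cthrc1, the last with a counting interval of 1.01 to 5.26.

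**Figure D4:**
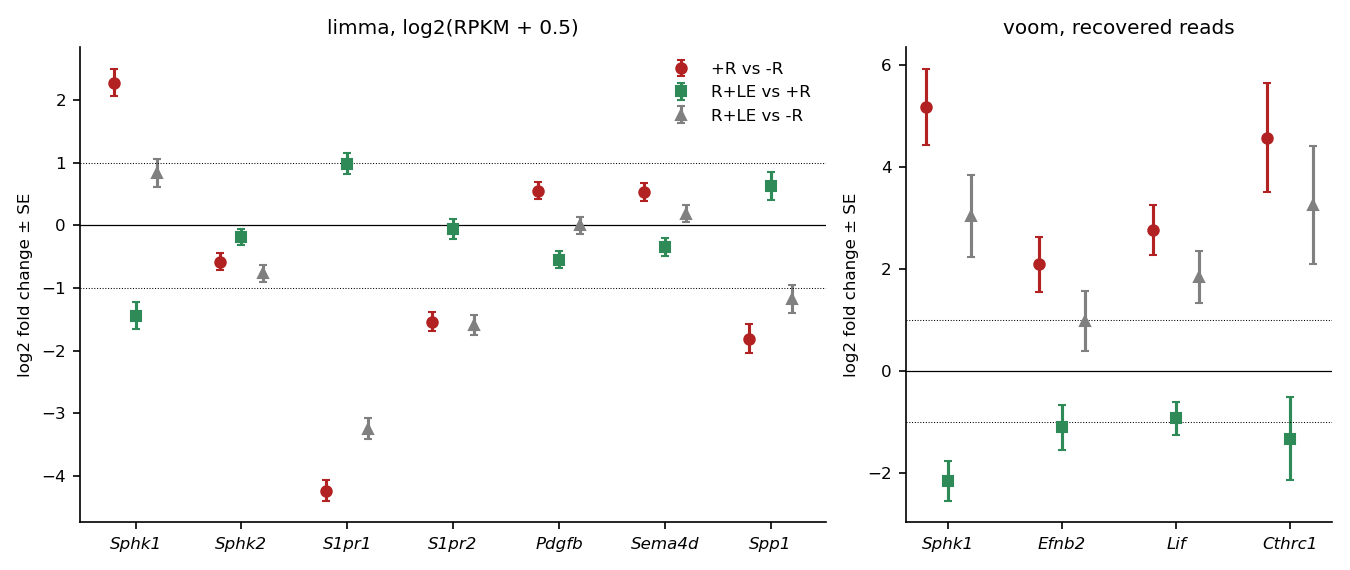
Log2 fold changes with their SE (vertical axes) in the 3 comparisons, for the 7 members tested by limma on log2(RPKM + 0.5) and for Sphk1, Efnb2, Lif and Cthrc1 by limma voom on recovered reads. Dotted lines mark a 2-fold change, and Sphk1 is the one member beyond it with LE in the left panel, while S1pr1 lies at 0.99.

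R+LE cultures also differed from -R, which asks how far the RANKL pattern was kept with LE. S1pr1 (log2 fold change -3.24), S1pr2 (-1.59) and Spp1 (-1.17) were called lower, 3 of 7 tested members, beside 6.36% of all tested genes lower and 3.92% higher. The adjusted p was under 0.05 for 5 of the 7 and for 34.3% of all tested genes. Pdgfb was at 19.0 ± 0.239 RPKM in R+LE and 18.9 ± 0.371 RPKM in -R (SD, n = 2), with a log2 difference of 0.01 (95% interval -0.28 to 0.29). Sema4d differed by 0.19 (95% interval -0.11 to 0.49). Sphk1 remained higher than in -R, with 54 reads against 6 over the group and a ratio of 9.32 (95% counting interval 4.02 to 26.5). Its log2 difference of 0.84 on log2(RPKM + 0.5) was short of 2-fold and ran from 0.69 to 0.99 with each library left out. With quantile normalization it was 0.55 (adjusted p = 0.0716 in limma). With recovered reads Sphk1 was called, at 3.03 (adjusted p = 0.00102 in limma voom). On the recovered reads Lif was called higher too (1.85, adjusted p = 0.00168 in limma voom), as was Cthrc1 (adjusted p = 0.0177), where 5.82% of all genes were. The Lif call was lost without either -R library (adjusted p = 0.0873 and 0.0540) or without R+LE replicate 2 (0.0615). The Cthrc1 call was lost without either -R library (adjusted p = 0.165 and 0.184) or without R+LE replicate 1 (0.240).

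The calls and medians of this paragraph are those of R+LE against +R. Among the semaphorin receptors Plxnd1 was called lower (25.5 ± 1.67 RPKM in R+LE), as was Plxna4 (3.34 ± 0.272 RPKM). Nrp1 was called higher (13.7 ± 0.414 RPKM), and the list median was -0.44. The Eph receptor gene Epha2 was called higher, at 7.16 and 7.34 RPKM in R+LE against 2.34 and 2.12 RPKM in +R and 3.36 and 3.23 RPKM in -R, and so was above its level without RANKL. Itgb3 was called lower, at 12.9 and 10.3 RPKM in R+LE. No gene of the PDGF, semaphorin, ephrin or gp130 lists was called with LE, with list medians of -0.61, 0.12, -0.50 and -0.08 over 1, 5, 2 and 4 tested genes.

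**Figure D5:**
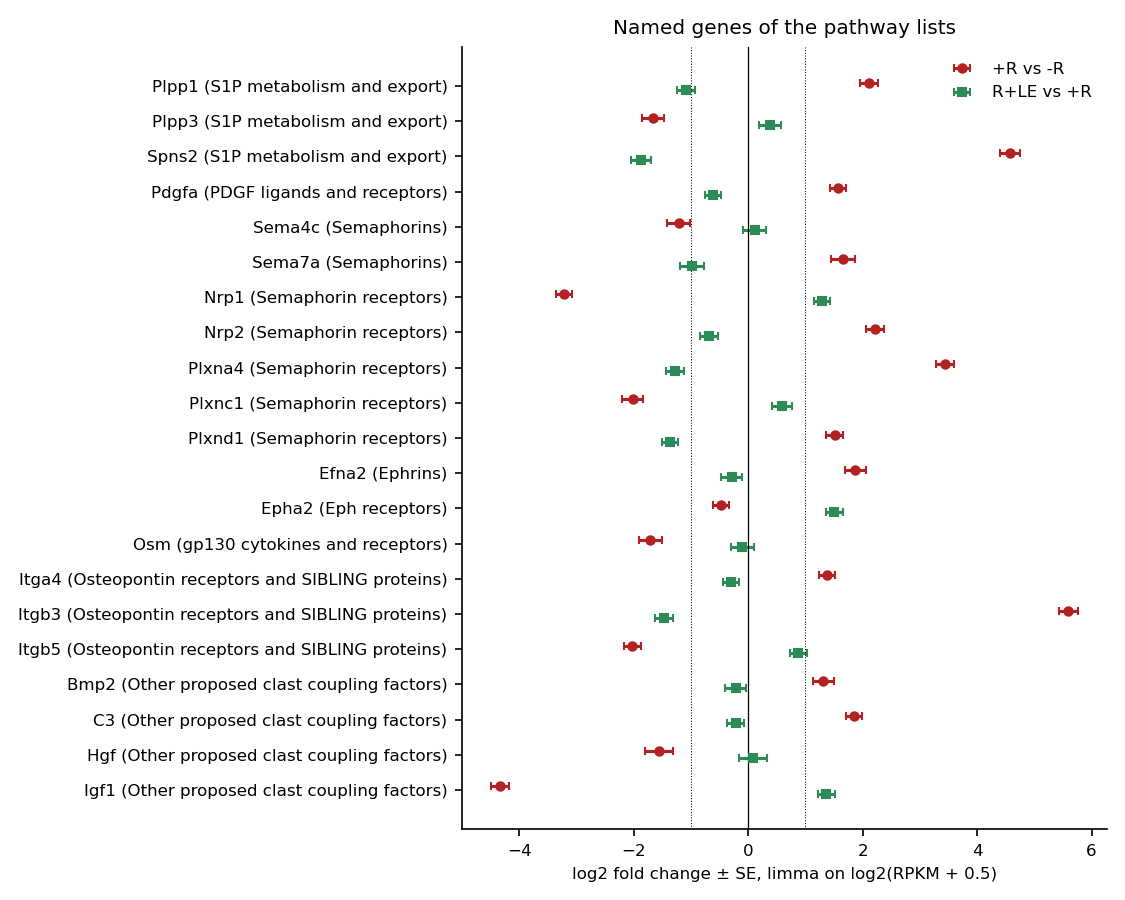
Log2 fold changes with their SE (horizontal axis, limma on log2(RPKM + 0.5)) for the genes named from the lists around the members, for +R against -R (circles) and R+LE against +R (squares). Dotted lines mark a 2-fold change, and Itgb3 (5.59) and Spns2 (4.57) lie farthest to the right while Igf1 (-4.33) lies farthest to the left. The comparisons share the +R libraries.

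The genes with profiles most like the called members were found by the Euclidean distance between log2(RPKM + 0.5) values centred on the mean of the 6 libraries. For Sphk1 these were Itga2 (distance 0.173), Pip5k1b (0.175) and Oaf (0.279). Itga2 measured 0.043 and 0.008 RPKM in -R, 2.06 and 1.72 RPKM in +R, and 0.452 and 0.292 RPKM in R+LE. For S1pr1 they were Atf3 (0.359), Il7r (0.374) and Id1 (0.412), with Atf3 at 49.9 ± 3.20 RPKM in -R and 2.21 RPKM on average in +R. For S1pr2 they were Arl11 (0.145), Pla2g2e (0.204) and Hgf (0.234). Of these, Pla2g2e (1.36 RPKM in -R, 0.077 RPKM in +R) and Hgf (1.31 and 0.112 RPKM) were low, and this scale understates their changes. Pla2g2e held 2 reads in each +R library, and 4 and 0 reads in R+LE. For Spp1 the nearest were Cd300c2 (0.336), 2010111I01Rik (0.337) and Ctse (0.353). The distance was taken over 6 libraries of 3 conditions and is a description only.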

How the data were processed

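RNA of 6 libraries, 2 for each of -R, +R and R+LE, was analysed. The authors sequenced paired ends of 100 bp and counted reads on exons in mm10 with HOMER, on either strand, keeping 1 transcript per gene, and deposited RPKM values (the column titles say FPKM). The methods of the study name TopHat as the aligner, whereas the submitters' processing notes name HISAT2 and DESeq2. The versions are not given in the sources used here.

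Libraries were grouped by their labels. The 26 symbols that a spreadsheet had turned into dates were restored from transcript identifiers. RPKM values were turned back into whole reads through length and depth, and 100% of the values checked came out whole within 0.1. In R version 4.3.3, limma version 3.58.1 was used on log2(RPKM + 0.5) of the 11595 genes that averaged 0.5 RPKM or more, with a variance trend and all 6 libraries, followed by Benjamini-Hochberg adjustment. limma voom was run on the recovered reads of genes with at least 20 reads. Alone, an exact permutation test of 2 against 2 libraries cannot go below a p of 0.333. Overlaps used GENCODE M21, and Python 3.11.15, pandas 2.3.3, scipy 1.17.1 and matplotlib 3.10.9 were used for tables and figures.

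The members and the gene lists were chosen with earlier results of these data known. The genes named are all members, at most 4 called genes of each list and comparison by size of change, and the 3 nearest profiles of each called member. A gene outside this rule was picked with its values in view. The 17 lists (10 around the members and 7 of cell type markers) are described by counts and medians, without a set test. Pseudocounts, filters, scalings, the replicate block, voom and each library left out were the alternatives.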

Additional observations from a re-analysis of the deposited data

How the results depend on the processing

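With RANKL, the 4 calls held under the alternatives run, except that a mean of at least 1 RPKM left Sphk1 untested and 3 calls, and no tested member changed direction. For R+LE against -R, 4 members were called with a pseudocount of 0.1 and with voom, which added Sphk1, and 3 under the others. The number of all genes called was 2841 by voom on recovered reads against 1797 for RANKL, 676 against 375 for LE with RANKL and 2015 against 1192 for R+LE against -R. The count of members called with LE against RANKL was 1, and it was 2 with a pseudocount of 0.1, with centring on the median, with quantile normalization, with Rn45s left out of the depth and with voom, which each added S1pr1. It was 0 with a mean of at least 1 RPKM, a filter that removes Sphk1. With each library left out it ranged from 1 to 2. The low members called with RANKL were 3 on recovered reads and 1 by limma on log2(RPKM + 0.5) with no filter, where Lif was called, and 2 to 3 with each library left out. For LE against RANKL the low members called ranged from 0 to 1 with each library left out. For R+LE against -R, 2 low members were called, 0 by limma with no filter, and 0 to 2 with each library left out. The S1pr2 difference with LE (-0.06) ranged from -0.28 to 0.17 with each library left out, the latter without R+LE replicate 2. The Pdgfb difference of R+LE from -R (0.01) ranged from -0.014 to 0.025 with each library left out, with -0.0069 without R+LE replicate 1. It was 0.095 with quantile normalization, 0.080 with Rn45s left out of the depth and 0.06 with centring on the median. The causes were not tested. The sources do not say whether a replicate number marks a shared mouse or day, and same-numbered libraries did not deviate together in all pairs of groups (correlations -0.05, 0.11 and 0.25). With the replicate block 4, 1 and 3 members were called, as without it, and 1801, 389 and 1200 genes. Depth limits Efnb2, Lif and Cthrc1 throughout and Sphk1 in -R.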

Other observations

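Of 15 other factors proposed to pass from osteoclasts to bone-forming cells, 8 were tested, and with RANKL 2 were called higher and 2 lower (median log2 fold change -0.63). C3, a complement component, rose from 6.90 ± 0.583 to 26.3 ± 2.92 RPKM and Bmp2, a bone morphogenetic protein, from 0.656 ± 0.0757 to 2.38 ± 0.272 RPKM (SD, n = 2). Igf1, an insulin-like growth factor, fell from 56.1 and 65.0 RPKM in -R to 2.15 and 2.94 RPKM in +R. Hgf fell from 1.31 ± 0.128 to 0.112 ± 0.0177 RPKM, and it passed the level filter only through its -R libraries. With LE added to RANKL, Igf1 was called higher, at 7.30 and 7.27 RPKM, and was the one gene of the 8 that was called (median -0.01). Tgfb1 measured 124 to 138 RPKM in -R and 84.0 to 93.4 RPKM in the other groups and was not called. Wnt11 was listed at 0 in all 6 libraries, and Wnt10b and Slit3 were at 0.032 RPKM or less.

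Among the marker lists, the macrophage gene Fcgr1 was called lower with RANKL, from 68.8 ± 0.654 to 1.64 ± 0.179 RPKM (SD, n = 2), the only one of its 5. Of 5 endothelial markers Kdr alone was tested, and it was called lower with LE, at 0.526 and 0.576 RPKM against 1.83 and 2.01 RPKM in +R. Of 5 megakaryocyte and platelet markers Pf4 alone was tested, which fell from 121 ± 2.91 to 7.35 ± 1.94 RPKM with RANKL and was 15.5 ± 3.91 RPKM in R+LE, a call higher than +R. None of 6 lymphocyte and 6 neutrophil markers reached the level filter, with sums of at most 1.07 and 0.980 RPKM in any library. Pdpn of the stromal list was called higher with LE, at 3.73 and 2.55 RPKM.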
